A study of Mus musculus with 42 samples.

Results

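Acute addition of enzalutamide (ENZA, an antiandrogen drug) to corticosterone (CORT, the main glucocorticoid of mice) was examined in the livers of 12 of the 42 mice of the study. The members were chosen by their labels: 6 acute livers given CORT and ENZA together, and 6 acute livers given CORT alone, both from the raw count table of the acute arm. All mice were males of the strain C57B6/J, with no mutation or transgene named in the labels, and each library came from 1 separately labelled snap-frozen liver. The other groups, each of 6 mice, were acute vehicle, acute ENZA, chronic vehicle, chronic CORT and chronic CORT+ENZA. Among the 42 mice there was no chronic group given ENZA alone. The sources used here name no dose, route, age or duration, and "acute" and "chronic" are the words of the labels. The comparison asks what the drug changes in a liver that is also exposed to a glucocorticoid.

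The liver holds 2 gene programmes that bear on this comparison. The nuclear receptors CAR (Nr1i3) and PXR (Nr1i2) sense foreign compounds and switch on genes that oxidise, conjugate and export them, above all cytochromes P450 of the Cyp2b, Cyp2c and Cyp3a families, and enzalutamide is known as an inducer of such enzymes in people. The transcription factor SREBP2 (Srebf2) is released when the sterol content of cell membranes is low and switches on the enzymes that build cholesterol from acetyl-CoA. Corticosterone acts through the glucocorticoid receptor (Nr3c1), whose classical liver targets include Fkbp5, Tsc22d3, Per1 and the p21 gene Cdkn1a.

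Libraries held 18674151 to 19782413 gene counts in CORT+ENZA and 18905898 to 19903967 in CORT, and none of 8 library properties (depth, genes detected, mitochondrial share, share of the 10 most abundant genes and 4 shares of reads not counted) passed a test between the groups (exact permutation, two-sided, 6 against 6, smallest adjusted p = 0.325). CORT+ENZA mouse L36A stood apart: the first principal component of the acute arm (17.5% of variance) placed it at -29.3 with vehicle mouse L19A at -51.9, against -10.2 to 14.8 for the other acute mice. The mitochondrial share of L36A was 11.49%, against 8.058 to 9.252% in its group. CORT+ENZA mouse L30A stood apart in acute phase genes, the plasma proteins made in inflammation: their summed level was 82800 CPM (counts scaled to library size) in L30A, 29400 to 35000 CPM in the other CORT+ENZA mice and 33200 to 39600 CPM in CORT mice. The counts of called genes, and the values of 4 lists (CAR and PXR targets, cholesterol synthesis, proliferation and acute phase), are also given without them. In whole liver, fewer cells of a type and less RNA per cell cannot be told apart.

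Adding ENZA to acute CORT raised 23 genes and lowered 1 of 13733 tested (edgeR's quasi-likelihood test, adjusted p under 0.05 by Benjamini-Hochberg), which is 0.167% higher and 0.00728% lower. Of the genes that rose, 10 are in the list of CAR and PXR targets and 5 in that of cholesterol synthesis, and for 10 of the 24 the log2 fold change was 1 or more in size. At an unadjusted p under 0.05 there were 421 higher (3.07%) and 275 lower (2%) genes, 696 in all where 687 would fall under that p by chance alone, and the median log2 fold change over all genes was -0.003. The 6 mice of one group did not overlap with the 6 of the other in 43 genes with CORT+ENZA higher (0.313%) and 24 with CORT+ENZA lower (0.175%), and 19 of the 23 genes that rose are among the 43. The count of 24 was 14 without CORT L20A, 15 without CORT L26A, 15 without CORT+ENZA L18A, 15 without L30A, 22 without L36A and 39 without L19A and L36A together. Of the 24 genes, 13 were called whichever of the 12 mice was left out, and none changed direction in any of the up to 20 settings in which it was fitted. These 13 were Cyp2c29, Ces2a, Fdft1, Cyp2c55, Cyp2c53-ps, Hmgcs1, Cyp3a11, Mvk, Cyp3a59, Nr1i2, AC138228.2, Fam169b and Msmo1. When only these 12 libraries were fitted, calls were lost for Hmgcs1 (adjusted p = 0.0907), Cyp3a59 (0.0796), Msmo1 (0.074), Nr1i2 (0.0725), Mvk (0.0563) and Fam169b (0.0563), each in edgeR, among others.

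**Figure D1:**
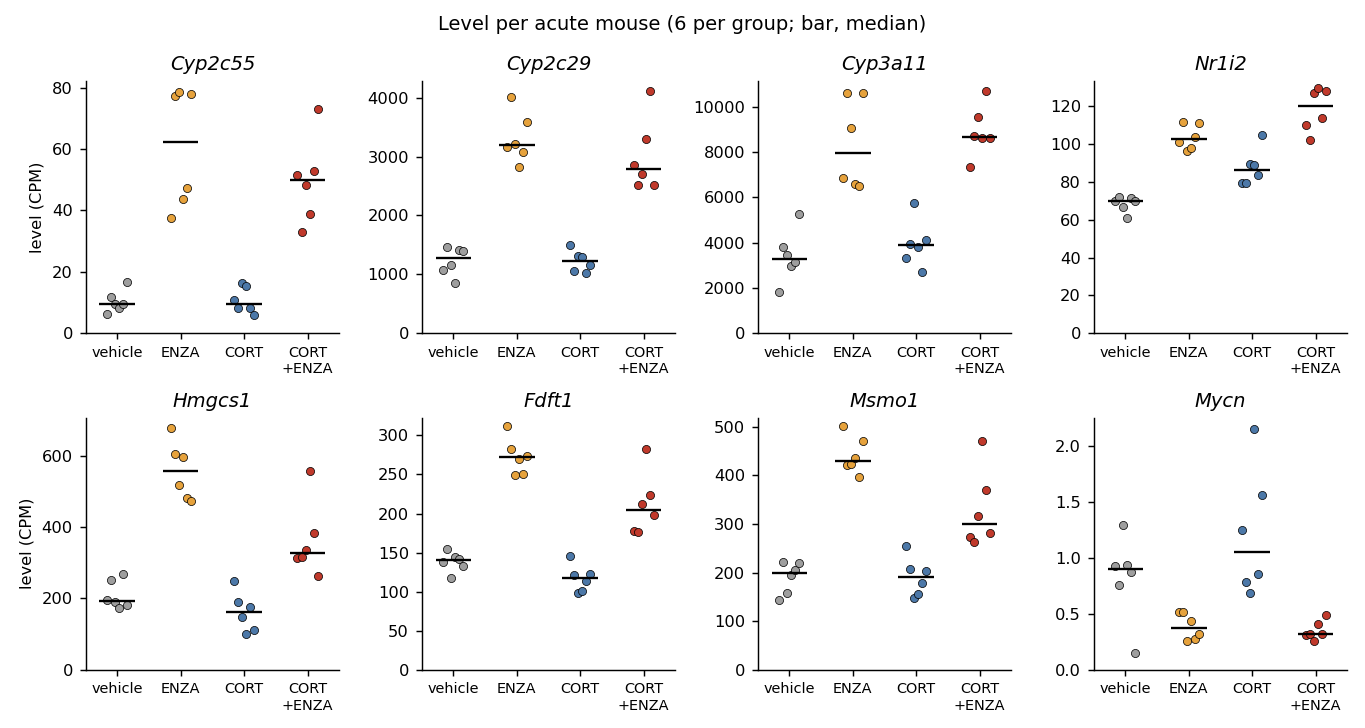
Level in CPM (linear axes from 0) of 8 of the 24 called genes in each acute mouse, 6 per group, with the group median as a bar. The CORT+ENZA mice lie above all CORT mice for the genes shown except Nr1i2, where 1 CORT mouse at 105 CPM reaches into the CORT+ENZA range, and Mycn, where they lie below.

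The largest group of responders was the oxidation branch of drug metabolism, in which 7 of 19 tested genes rose. Cyp2c55 (ENSMUSG00000025002, chromosome 19, 39007019 to 39042693 in GRCm38), a cytochrome P450 of the Cyp2c family, stood at 5.75 to 16.4 CPM (median 9.4) in CORT mice and at 32.8 to 73 CPM (median 49.9) in CORT+ENZA mice. Every CORT+ENZA mouse was above every CORT mouse, and the vehicle mice, at 6.13 to 16.7 CPM, overlapped with the CORT mice. The fitted fold was 4.61 (log2 fold change 2.21 ± 0.28 SE, adjusted p = 0.000162). Cyp2c29 (ENSMUSG00000003053, chromosome 19, 39269405 to 39330713), an abundant member of the same family, stood at 1020 to 1500 CPM (median 1220) with CORT and at 2510 to 4120 CPM (median 2780) with CORT+ENZA. Its ranges were separated by a wide gap, its fold was 2.46, and its adjusted p of 1.43e-05 was the smallest of the comparison. Cyp3a11 (ENSMUSG00000056035, chromosome 5, 145854426 to 145879964), the mouse P450 gene most used as a readout of PXR, stood at 2680 to 5770 CPM (median 3880) with CORT and at 7360 to 10700 CPM (median 8680) with CORT+ENZA, a fold of 2.27 without overlap (adjusted p = 0.0054). Cyp3a59 rose 3.73-fold, from a median of 27.5 to 121 CPM (adjusted p = 0.00544), and Cyp2c50 1.54-fold, from a median of 717 to 1040 CPM (adjusted p = 0.0362). These last values are uncertain, since 28 and 16.6% of the 50-base stretches of their transcripts also occur in another gene, and Cyp2c50 lost its call whichever mouse was left out.

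Of 3 partners of the P450 enzymes, 1 passed the test. Por (chromosome 5, 135670033 to 135735326), the reductase that passes electrons to all microsomal P450s, rose from 564 to 929 CPM (median 725) to 952 to 1300 CPM (median 1130), without overlap (log2 fold change 0.62 ± 0.13, adjusted p = 0.0329), and lost its call in 9 of 12 fits with a mouse left out. Cyb5r3, which reduces cytochrome b5, stood at 580 to 712 CPM with CORT and at 497 to 611 CPM with CORT+ENZA (-0.21 ± 0.08, adjusted p = 0.835), and Cyb5a, cytochrome b5 itself, had a log2 fold change of 0.28 ± 0.12 (adjusted p = 0.868). Ephx1, the microsomal epoxide hydrolase of the oxidation group, rose 1.4-fold without overlap, from a median of 436 to 623 CPM (adjusted p = 0.0317), and lost its call in 10 of 12 such fits. Of the 9 haem synthesis genes none was called. Alas1, the enzyme that sets the rate of haem synthesis and so the haem supply of P450s, stood at 195 to 1130 CPM (median 691) with CORT and 817 to 1300 CPM (median 1080) with CORT+ENZA, with overlapping mice (log2 fold change 0.61 ± 0.27, adjusted p = 0.914).

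In the later steps of drug metabolism fewer genes passed the test. Among 3 hydrolysis genes, Ces2a (ENSMUSG00000055730, chromosome 8, 104734003 to 104741634), a carboxylesterase, rose from 356 to 462 CPM (median 387) to 597 to 709 CPM (median 647). The mice did not overlap (1.64-fold, adjusted p = 4.07e-05), although 22.2% of the transcript occurs in another gene and the value is uncertain. Among 20 conjugation genes, Papss2 (chromosome 19, 32595790 to 32667187), which makes the sulfate donor of sulfation, rose 1.51-fold (adjusted p = 0.0141; not called without L8A, L20A, L26A or L30A), and CORT mouse L2A at 228 CPM overlapped with the CORT+ENZA range of 218 to 297 CPM. Glutathione S-transferase Gstm3 stood at 54.8 to 126 CPM with CORT and at 182 to 401 CPM with CORT+ENZA without overlap, yet it did not pass the test (log2 fold change 1.49 ± 0.41, adjusted p = 0.267) and 28.8% of its transcript occurs elsewhere. Of 5 transport genes none was called, and Abcb1a, an efflux pump of the P-glycoprotein type, came nearest (log2 fold change 1.33 ± 0.29, adjusted p = 0.0551, 17% of its transcript shared).

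Of the 3 receptor genes, Nr1i2 (ENSMUSG00000022809, chromosome 16, 38248323 to 38294824), which encodes PXR itself, rose from 79.2 to 105 CPM (median 86.5) to 102 to 130 CPM (median 120). Only the highest CORT mouse, L32A at 105 CPM, reached into the CORT+ENZA range (1.35-fold, adjusted p = 0.00597). The vehicle mice stood lower than all CORT mice, at 60.7 to 71.9 CPM. Nr1i3, which encodes CAR, stood at 172 to 339 CPM with CORT and 223 to 323 CPM with CORT+ENZA (log2 fold change 0.02 ± 0.21, adjusted p = 0.999), a difference that changed sign without CORT L8A, to -0.08. Cyp2b10, the P450 gene most used as a readout of CAR, stood at 15.6 to 44.7 CPM (median 24.3) with CORT and at 43.7 to 219 CPM (median 53.3) with CORT+ENZA. Its largest values were 219 CPM in L30A and 132 CPM in L36A, and it did not pass the test (log2 fold change 1.75 ± 0.56, adjusted p = 0.511, and 1.27 with an adjusted p of 0.896 without L30A). Of all 50 tested members of the CAR and PXR list, 10 rose and none fell, 25 were higher and none lower at an unadjusted p under 0.05, and the median log2 fold change was 0.38 against -0.003 over all genes tested. The summed level of the list was 14200 to 20800 CPM in CORT mice and 26300 to 32100 CPM in CORT+ENZA mice, without overlap. Cyp3a11 and Cyp2c29 together made up 3700 to 7080 CPM and 10200 to 14800 CPM of it, and the other 48 members 10600 to 13700 CPM and 15400 to 17500 CPM, also without overlap. These 48 still include the other called genes of the list, such as Por, Cyp2c50 and Ces2a. Their sum therefore does not show whether the members that were not called rose. Without L30A, 7 of the 50 were called and the median was 0.33, and without L36A 8 were called and it was 0.35.

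The induced P450 genes sit in 2 gene clusters, and their neighbours did not all move with them. This view was chosen after the values had been seen. On chromosome 19, 14 Cyp2c genes were tested, of which 4 rose, 9 were above 0 and 5 below. Among those tested, Cyp2c55, the pseudogene Cyp2c53-ps and Cyp2c29 are neighbours between 39007019 and 39330713, and Cyp2c50 lies at 40089688 to 40113950. Between them, Cyp2c38 (0.21 ± 0.23), Cyp2c39 (0.38 ± 0.27), Cyp2c40 (-0.39 ± 0.5), Cyp2c37 (0.43 ± 0.17) and Cyp2c54 (0.69 ± 0.17, log2 fold change) did not pass the test. Nor did Cyp2c67 (-0.033 ± 0.161), Cyp2c68 (-0.145 ± 0.173) and Cyp2c69 (-0.503 ± 0.552), which also lie between them and whose shared sequence is not given here. The values of Cyp2c39 (12% of the transcript shared with other genes), Cyp2c40 (72.1%), Cyp2c37 (30.1%) and Cyp2c54 (25.7%) are uncertain. Cyp2c53-ps (chromosome 19, 39229254 to 39274985) rose from 0.195 to 0.579 CPM to 0.961 to 2.31 CPM without overlap (4.38-fold, adjusted p = 0.00142), but its exons overlap those of Cyp2c29 on the same strand and its lowest library held 4 counts, so its reads may not be told apart from those of Cyp2c29. On chromosome 5, Cyp3a11 and Cyp3a59 rose, Cyp3a25 between them just missed the test (log2 fold change 0.79 ± 0.17, adjusted p = 0.0573, 26.8% of its transcript shared), and Cyp3a13, which lies apart from them, stood at 0.13 ± 0.14.

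Cholesterol synthesis was the other programme that responded, with 5 of 21 tested genes higher and none lower. At an unadjusted p under 0.05, 16 were higher and none lower, all 21 lay above 0, and the median log2 fold change was 0.57. Hmgcs1 encodes the HMG-CoA synthase of the cytosol (ENSMUSG00000093930, chromosome 13, 119690379 to 119708260). It stood at 101 to 249 CPM (median 162) with CORT and at 262 to 557 CPM (median 326) with CORT+ENZA. The groups did not overlap, and the fold was 2.22 (log2 fold change 1.15 ± 0.19, adjusted p = 0.0054). Mvk (ENSMUSG00000041939, chromosome 5, 114444269 to 114460591), mevalonate kinase, stood at 15 to 26.4 CPM (median 22.9) and at 31.8 to 51.3 CPM (median 34.9), a fold of 1.67 without overlap (adjusted p = 0.0054). Fdft1 (ENSMUSG00000021273, chromosome 14, 63145150 to 63179578), squalene synthase and the first enzyme committed to sterols, stood at 98.4 to 146 CPM (median 118) and at 176 to 283 CPM (median 205). Its fold was 1.8 without overlap (adjusted p = 9.51e-05), with 10.9% of the transcript shared and exons of Ctsb on the other strand. Lss, lanosterol synthase, rose 1.72-fold, from 43.7 to 70 CPM to 72.3 to 145 CPM (adjusted p = 0.0362), and lost its call in 9 of 12 fits with a mouse left out. Msmo1, the methylsterol monooxygenase that trims lanosterol, stood at 147 to 254 CPM (median 191) and at 264 to 471 CPM (median 299), without overlap (1.73-fold, adjusted p = 0.00916). Exons of Hmgcs1 and Lss, too, overlap those of a gene on the other strand (Gm48342 and 4930483K19Rik).

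**Figure D2:**
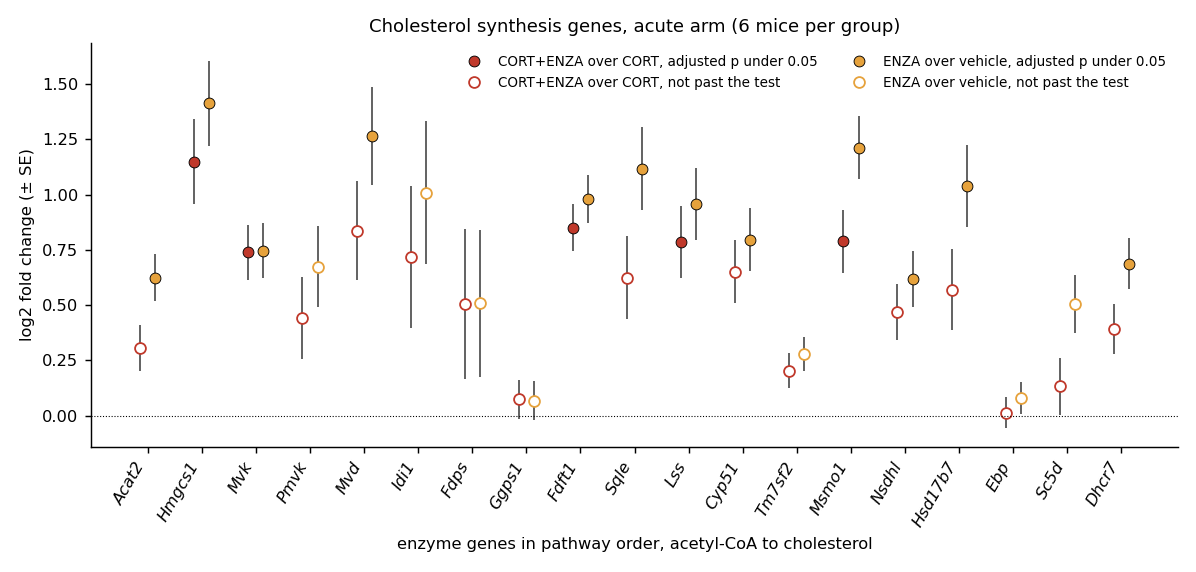
Log2 fold change with its standard error (vertical axis) of 19 of the 21 cholesterol synthesis genes in pathway order (horizontal axis), for ENZA added to CORT (red) and ENZA added to vehicle (yellow), filled where the adjusted p was under 0.05. All 19 red points lie above 0, with 5 filled, from 0.01 for Ebp to 1.15 for Hmgcs1.

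Genes that did not pass the test were spread along the same pathway. Cyp51, the lanosterol demethylase, had a log2 fold change of 0.65 ± 0.14 (adjusted p = 0.0573), Mvd 0.84 ± 0.23 (adjusted p = 0.235) and Sqle, the squalene epoxidase, 0.62 ± 0.19 (adjusted p = 0.374). Ggps1 (0.07 ± 0.09), which leads to geranylgeranyl diphosphate and not to sterols, and Ebp (0.01 ± 0.07) were nearest to 0. The mice differed among themselves along the whole pathway: L24A had the highest level of the CORT+ENZA mice in 16 of 21 genes and L36A the lowest in 11. The summed level was 5120 CPM in L24A, 4640 in L30A, 3880 in L18A, 3580 in L12A, 3400 in L6A and 2920 in L36A, against 2520 to 3680 CPM in CORT mice, so the sums of 3 CORT+ENZA mice lay within the CORT range. The upper end of that range was L2A, the highest CORT mouse in 15 of 21 genes. The other CORT mice summed to 2520 to 2980 CPM, a range that still held L36A. Without L36A 6 of the 21 genes were called and the median was 0.69, and without L30A 4 were called and it was 0.54.

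No gene that controls or uses this pathway was called. None of 13 tested genes of SREBP2 control and sterol uptake was called, and their median log2 fold change was 0.22. Srebf2 stood at 60.2 to 89.1 and 71.6 to 131 CPM (0.22 ± 0.12, adjusted p = 0.999), and Insig1, which holds SREBP2 back in the endoplasmic reticulum, had 0.44 ± 0.24 (adjusted p = 0.999). None of 8 genes of sterol efflux and LXR was called (median 0.07). None of 24 bile acid genes was called (median -0.02). Among them Cyp7a1, the rate-limiting enzyme of bile acid synthesis, stood at 168 to 639 CPM and 93.9 to 300 CPM (log2 fold change -0.72 ± 0.29, adjusted p = 0.856), and Cyp8b1, which makes cholic acid, at 355 to 795 and 201 to 391 CPM (-0.98 ± 0.26, adjusted p = 0.23). Fatty acid and triglyceride synthesis, under the related factor SREBP1, had none of 20 genes called and a median of -0.07.

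The bases before 6 gene starts are shown so that both groups of called genes can be read side by side. Each sequence is the 150 bases before the gene start that RefSeq gives on GRCm38.p6, 5′ to 3′ on the strand of the gene, for 3 called cholesterol genes and 3 called drug metabolism genes. Capitals mark CCAAT on either strand (ATTGG where it is on the other strand) and the sterol regulatory element TCACCCCAC, also in the form TCACNCCAC with any base at N, which includes the former.
Hmgcs1, chr13:119690201-119690350, plus strand: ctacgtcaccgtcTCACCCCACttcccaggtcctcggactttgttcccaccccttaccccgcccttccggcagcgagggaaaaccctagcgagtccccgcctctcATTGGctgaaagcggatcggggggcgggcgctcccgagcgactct
Mvk, chr5:114444119-114444268, plus strand: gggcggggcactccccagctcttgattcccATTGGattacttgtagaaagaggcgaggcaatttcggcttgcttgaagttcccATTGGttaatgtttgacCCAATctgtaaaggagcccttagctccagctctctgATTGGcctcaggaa
Lss, chr10:76531455-76531604, plus strand: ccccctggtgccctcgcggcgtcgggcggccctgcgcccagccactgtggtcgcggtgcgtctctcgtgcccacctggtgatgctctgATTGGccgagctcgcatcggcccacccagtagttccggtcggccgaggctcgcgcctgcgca
Cyp2c29, chr19:39286935-39287084, plus strand: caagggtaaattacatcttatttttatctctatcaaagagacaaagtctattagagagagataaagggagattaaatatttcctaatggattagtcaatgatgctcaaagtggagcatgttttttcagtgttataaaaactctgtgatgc
Cyp2c55, chr19:39006869-39007018, plus strand: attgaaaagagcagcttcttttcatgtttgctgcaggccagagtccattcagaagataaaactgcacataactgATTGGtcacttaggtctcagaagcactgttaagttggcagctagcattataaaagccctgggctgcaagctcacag
Ces2a, chr8:104733853-104734002, plus strand: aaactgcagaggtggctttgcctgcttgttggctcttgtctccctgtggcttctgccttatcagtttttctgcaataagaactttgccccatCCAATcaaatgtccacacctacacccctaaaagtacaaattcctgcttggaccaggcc
Hmgcs1 holds TCACCCCAC 137 bases and ATTGG 45 bases before its start, Mvk holds 4 matches of CCAAT in the stretch shown, and Cyp2c29 holds none.

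Over the 250 bases before each start, on both strands, the counts were as follows. Of the 21 cholesterol genes, 16 have a RefSeq window, and CCAAT is in 15 of these 16 and GGGCGG in 14, against 37.5 and 35.4% of the 27025 genes with a window. TCACCCCAC is in 1 of the 16, Hmgcs1, against 0.555% of all genes, and TCACNCCAC in the same 1, against 1.22%. Of the 57 genes listed as CAR and PXR targets, 53 have a window, CCAAT is in 25, GGGCGG in 11, TCACCCCAC in 0 and TCACNCCAC in 1 (Gstm6). A gene counts if any of its windows holds the letters, and the windows are alike in length. A match is a description of the letters, not of binding.

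**Figure D3:**
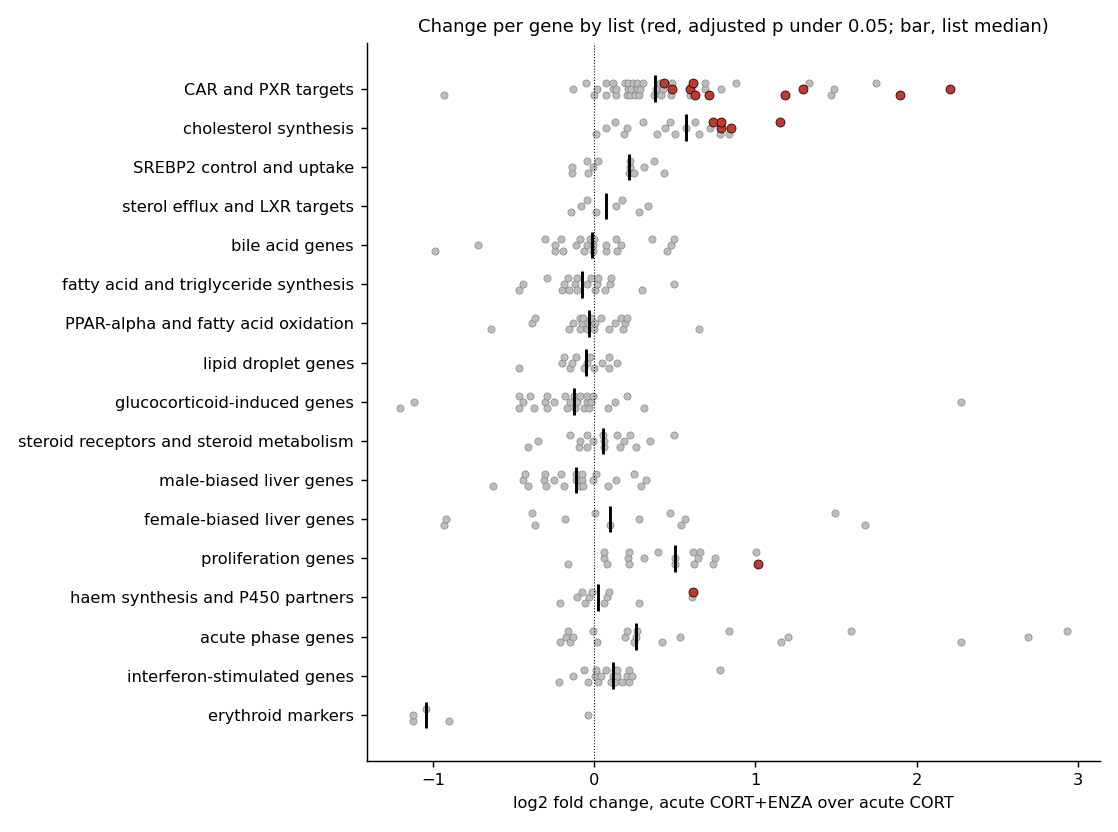
Log2 fold change of acute CORT+ENZA over acute CORT (horizontal axis) for each tested gene of 17 lists (1 row per list, points offset within a row), in red where the adjusted p was under 0.05, with the list median as a bar. The medians of CAR and PXR targets (0.38) and cholesterol synthesis (0.57) lie above 0 with 10 and 5 red points, proliferation and haem genes have 1 red point each, and the glucocorticoid-induced list has its median at -0.12 and no red point.

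Of the 8 other genes that rose, only Mcm5 is in one of the lists. Myom3 (ENSMUSG00000037139, chromosome 4, 135759715 to 135815564), which encodes a myomesin of the muscle M band, had the largest fold, 5.07, from 0.293 to 0.785 CPM to 1.06 to 5.07 CPM without overlap (adjusted p = 0.0115). It is a gene of few reads, with 6 counts in its lowest library, its highest mouse was L30A, and without L30A the log2 fold change was 1.98 with an adjusted p of 0.0503. The lincRNA AC138228.2 (ENSMUSG00000117879, chromosome 17, 31907879 to 31909029, minus strand) rose from 1.8 to 2.58 CPM to 3.09 to 6.09 CPM without overlap (2.19-fold, adjusted p = 0.00606). Its nearest protein-coding genes are Hsf2bp, 35740 bases away, and Sik1, 52075 bases away. Mcm5, a subunit of the helicase that opens DNA at replication, rose from 1.25 to 2.2 CPM to 2.5 to 5.71 CPM without overlap (2.02-fold, adjusted p = 0.0462). Its highest mouse was again L30A, and without that mouse the log2 fold change was 0.8 with an adjusted p of 0.159. Mcm5 was the 1 gene called of 19 tested proliferation genes, whose median was 0.5, and 0.08 without L30A and 0.54 without L36A, when none was called. Its partner Mcm6 stood at 2.14 to 4 CPM and 3.08 to 13.3 CPM with its highest level in L30A too (1 ± 0.28 on the log2 scale, adjusted p = 0.246, and 0.59 without L30A).

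Smaller changes were seen in 4 further genes, of which only Fam169b kept its call whichever mouse was left out. Fam169b rose 1.36-fold, from 13.8 to 16.2 CPM to 17.6 to 23.8 CPM (adjusted p = 0.00916), and 4931406C07Rik 1.35-fold, from 132 to 178 CPM to 198 to 226 CPM (adjusted p = 0.0187), both without overlap, and both have exons of other genes on the opposite strand. Pdp2, a phosphatase that switches on pyruvate dehydrogenase, rose from 36.9 to 50.6 CPM to 50.3 to 66.1 CPM (adjusted p = 0.024). Arhgef7, an exchange factor for small GTPases, rose from 23.1 to 32.5 CPM to 30.8 to 37.4 CPM (adjusted p = 0.0362). The 1 gene that fell was Mycn (ENSMUSG00000037169, chromosome 12, 12936093 to 12941914), a transcription factor of the MYC family. It stood at 0.685 to 2.15 CPM (median 1.05) with CORT and at 0.259 to 0.491 CPM (median 0.319) with CORT+ENZA, without overlap. Its log2 fold change was -1.77 ± 0.35 (adjusted p = 0.024), its lowest library held 5 counts, and the call was lost in 8 of 12 fits with a mouse left out (adjusted p = 0.108 without L20A).

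Just outside the threshold lay Cyp51, Cyp3a25 and Gulo (adjusted p = 0.0573 for each), Slc6a13, Map3k13, St3gal4, Steap3, Cyp2c54 and Plekhf1. Gulo, the last enzyme of vitamin C synthesis, stood at 482 to 566 CPM with CORT and at 389 to 453 CPM with CORT+ENZA without overlap (log2 fold change -0.3). Slc6a13, a transporter of GABA and taurine, stood at 227 to 269 and 294 to 330 CPM, also without overlap. St3gal4, a sialyltransferase, stood at 66.4 to 94.8 and 54.9 to 69.7 CPM (log2 fold change -0.36), where the ranges met.

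The classical targets of the glucocorticoid receptor showed no called difference between the groups, both of which received CORT. None of 29 glucocorticoid-induced genes was called, 2 were lower and none higher at an unadjusted p under 0.05, and the median log2 fold change was -0.12. Only 5 of the 29 lay above 0, so the list leaned lower without a called gene, where the median over all genes was -0.003. L32A was the highest CORT mouse in 18 of the 29. Its summed level was 10500 CPM, against 8200 to 9740 CPM in the other CORT mice and 7930 to 9290 CPM in CORT+ENZA mice. The part of this mouse in the lean was not tested. Fkbp5, a cochaperone of steroid receptors, stood at 172 to 235 CPM in CORT mice and at 130 to 195 CPM in CORT+ENZA mice, against 32.7 to 149 CPM in vehicle mice (log2 fold change -0.25 ± 0.24, adjusted p = 0.999). Cdkn1a stood at 15 to 24 CPM with CORT and, more widely, at 4.15 to 23.6 CPM with CORT+ENZA (-0.47 ± 0.33, adjusted p = 0.999), with mouse L18A at 4.15 CPM within the vehicle range of 0.986 to 5.45 CPM. Tsc22d3, which encodes GILZ, stood at 35.3 to 78.5 and 31.6 to 49.3 CPM (-0.4 ± 0.17, adjusted p = 0.902), and Per1 at 17.3 to 50.3 and 30 to 47.6 CPM (-0.04 ± 0.31, adjusted p = 0.999). Vehicle mice stood at 23 to 39 CPM for Tsc22d3 and at 20.1 to 86.5 CPM for Per1. Per1 in CORT mice thus overlapped widely with vehicle, and it does not show whether a response to CORT was kept. Nr3c1, the receptor itself, stood at 63.3 to 80.4 and 51.5 to 86.5 CPM (0.06 ± 0.12, adjusted p = 0.999).

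Of 23 male-biased liver genes none was called, with a median of -0.11, and of 13 female-biased genes none was called, with a median of 0.1. Several of the male-biased genes, such as those of the Mup family, share sequence with near-identical copies and are uncertain. Among the male-biased genes Hsd3b5 had the largest difference, at 105 to 317 CPM and 54.4 to 211 CPM (log2 fold change -0.63 ± 0.3, adjusted p = 0.96, 21.2% of its transcript shared).

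Other lists held no called gene: acute phase (21 tested, median 0.26), interferon-stimulated (21, median 0.12), PPAR-alpha and fatty acid oxidation (22, median -0.03), lipid droplet (14, median -0.05), glucose metabolism (17, median -0.03), circadian clock (20, median 0.04), growth hormone and IGF axis (15, median 0.02), NRF2 and AhR targets (11, median 0.08) and unfolded protein response (16, median 0.01). In the acute phase list L30A was the highest CORT+ENZA mouse in 18 of 21 genes, and without it the median was -0.26, opposite in sign, while it was 0.33 without L36A. Saa2, a serum amyloid gene with 31.8% of its transcript shared, stood at 3550 CPM in L30A against a group median of 20.6 CPM, and at 8.88 to 149 CPM in CORT mice.

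No marker of a liver cell type passed the test. The labelled tissue was checked by 5 tested hepatocyte markers, which summed to 95300 to 119000 CPM in CORT+ENZA and 100000 to 137000 CPM in CORT, and none was called. No marker was called among 10 pericentral and 9 periportal hepatocyte, 10 Kupffer cell, 8 endothelial, 8 stellate and 5 cholangiocyte genes tested, with medians of -0.11, 0.02, 0.01, -0.07, -0.05 and 0.18. Pericentral hepatocytes are those that express most of the drug-metabolising P450 genes. Their markers summed to 8530 to 10200 CPM in CORT+ENZA and 9350 to 10600 CPM in CORT, with Glul (874 to 979 against 994 to 1170 CPM, 14.2% of its transcript shared) and Slc1a2 (126 to 144 against 147 to 172 CPM) lower without overlap and not past the test. These are 2 of 10 pericentral markers, against 0.175% of all genes with CORT+ENZA lower without overlap, and their part in the results was not tested. Erythroid markers summed to 134 to 242 CPM in CORT+ENZA and 197 to 420 CPM in CORT, with a median log2 fold change of -1.04 and none of 5 called, and the part of blood in the results was not tested. Of the markers of adipocytes none was tested, and of those of pancreatic acinar cells, neutrophils and T and NK cells 1, 1 and 2 were, at 0.223 to 4.43 CPM in sum per list.

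The same drug was given without CORT in the other acute mice, in mice that are not part of the comparison above, although 1 fit over the 24 acute libraries estimated the spread for both. There ENZA raised 116 genes (0.845% of those tested) and lowered 64 (0.466%). Of the 23 genes raised on top of CORT, 20 also rose with ENZA alone, which is 87% of the 23 and 17.2% of the 116. The 3 others were Myom3 (0.93 ± 0.44, adjusted p = 0.327), Arhgef7 (0.28 ± 0.08, adjusted p = 0.0972) and Mcm5 (0.72 ± 0.21, adjusted p = 0.0917, log2 fold change). The CAR and PXR list had 22 of 50 genes higher and a median of 0.61 with ENZA alone, against 10 and 0.38 when added to CORT. The cholesterol list had 13 of 21 higher and a median of 0.75, against 5 and 0.57. Msmo1 stood at 396 to 501 CPM with ENZA and 143 to 222 CPM with vehicle, with no overlap. The count of 180 genes changed by ENZA alone was 77 without ENZA L11A, 91 without ENZA L29A, 101 without ENZA L35A, 112 without vehicle L25A and 114 without vehicle L1A. With vehicle L19A and CORT+ENZA L36A both left out, the count was 209.

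The difference between these effects was tested gene by gene as an interaction. No gene passed (0% of 13733, edgeR), with 501 at an unadjusted p under 0.05, and none passed with DESeq2 (523 unadjusted) or limma-voom (680 unadjusted). The added effect was the smaller in 18 of the 23 genes that rose, in 46 of 50 CAR and PXR genes (median difference -0.22 on the log2 scale) and in 20 of 21 cholesterol genes (median -0.23), against 50.4% of all genes tested (median -0.002). Lists without a called gene leaned the same way: 13 of 13 genes of SREBP2 control and uptake (median -0.12), 19 of 20 of fatty acid and triglyceride synthesis (median -0.39), 18 of 21 interferon-stimulated genes (median -0.2) and 10 of 10 Kupffer cell markers (median -0.24), so this lean was not particular to the lists with called genes. No p is given for these counts, since genes of a list are not independent. Of the 23, Ces2a (-0.34 ± 0.12), Cyp2c53-ps (-1.17 ± 0.52), Myom3 (1.41 ± 0.62) and Msmo1 (-0.42 ± 0.2) had an unadjusted p under 0.05, with an adjusted p of 0.994 for each (edgeR). For Cyp2c29 the difference was -0.14 ± 0.19, for Cyp3a11 -0.12 ± 0.28 and for Mvk -0.01 ± 0.18.

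**Figure D4:**
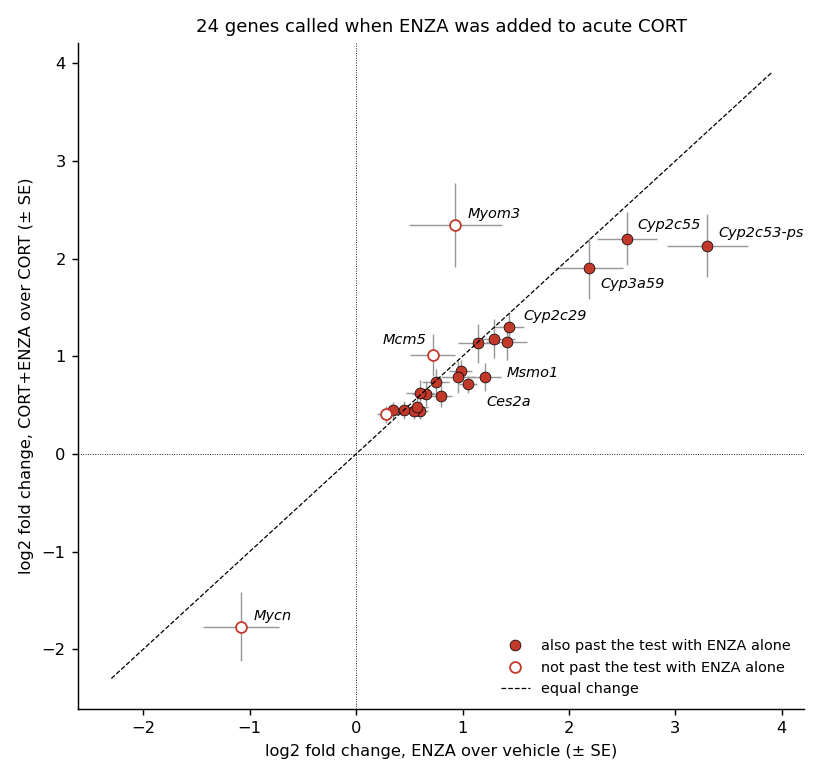
Log2 fold change with standard errors of the 24 called genes when ENZA was added to vehicle (horizontal axis) and to CORT (vertical axis), with a dashed line of equal change, filled where ENZA alone passed the test too. Of the points named, Cyp2c53-ps (3.3 and 2.13) lies below the line and the open point of Myom3 (0.93 and 2.34) above it.

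In the chronic arm the same addition changed many more genes, 916 higher (6.99% of 13099) and 636 lower (4.86%). RNA of the chronic livers was extracted with another kit than that of the acute livers, so the kit and the duration cannot be told apart, and only effects within an arm are set side by side. The share of multiply aligned reads differed too, at 9.338 to 12.82% in acute and 18.59 to 22.68% in chronic libraries. Its part in differences between the arms, as for genes that share sequence, was not tested. Chronic CORT+ENZA mouse 18 stood apart: several of its cholesterol genes stood in the range of chronic CORT mice, such as Fdft1 (85.1 against 206 to 377 CPM in the other chronic CORT+ENZA mice and 68.3 to 99 CPM in chronic CORT mice) and Msmo1 (94.9 against 280 to 509 CPM and 60.2 to 121 CPM). Its Mki67, a proliferation marker, stood at 14.1 CPM against 0.331 to 1.79 CPM in its group, and Adgre1, a macrophage marker, at 51.5 against 6.13 to 15.4 CPM. Of the 23 genes that rose in the acute arm, 18 rose in the chronic arm and none fell, and Mycn fell in both (-3.41 ± 0.46 in the chronic arm, adjusted p = 6.72e-05). Nr1i2 (0.38 ± 0.17, adjusted p = 0.163), Fam169b, Pdp2, Por and Mcm5 were not called there. The CAR and PXR list had 36 of 50 genes higher in the chronic arm (median 1.13), and the cholesterol list 17 of 21 (median 1.29). Without mouse 18, an alternative chosen after seeing the data, 36 of 50 CAR and PXR genes (median 1.04) and 19 of 21 cholesterol genes (median 1.45) rose, as did 19 of the 23 acute responders, with Fam169b added. Cyp2c55 stood at 0.779 to 2.22 CPM in chronic CORT mice and at 40.7 to 87.5 CPM in chronic CORT+ENZA mice, a log2 fold change of 5.58 ± 0.29 (adjusted p = 7.46e-10).

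Tested over all 42 libraries, the chronic effect of the addition exceeded the acute one in 128 genes (0.905% of 14138) and was below it in 51 (0.361%). An effect here is a fold change within an arm, so it also depends on the level in the CORT mice of that arm. A larger effect does not say that the level with CORT+ENZA was higher in that arm. Of the 23 acute responders, 8 were among the 128: Cyp2c55 (difference 3.34 ± 0.42 on the log2 scale, adjusted p = 3.38e-06), Cyp3a11 (2.02 ± 0.33, adjusted p = 0.00017), Cyp2c53-ps, Cyp3a59, Msmo1, Ces2a (1.29 ± 0.14, adjusted p = 1.7e-07), Cyp2c29 and 4931406C07Rik. In all, 19 of the 23 had a larger effect in the chronic arm, and Myom3 had the largest difference the other way (-1.54 ± 0.51, adjusted p = 0.131). Among lists, the chronic effect was above the acute one in 42 of 50 CAR and PXR genes, past the test in 13, and in 20 of 21 cholesterol genes, past the test in 2, against 46.4% of all genes above. Of 21 interferon-stimulated genes, 17 passed this test, and while none was called in the acute arm, 20 rose in the chronic arm. Without mouse 18 of the chronic CORT+ENZA group the difference passed the test in 14 CAR and PXR genes, 7 cholesterol genes, 17 interferon-stimulated genes and 10 of the 23 responders, Fdft1 and Cyp2c50 being the added responders, and 18 of the 23 had a larger chronic effect, Mcm5 no longer among them.

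**Figure D5:**
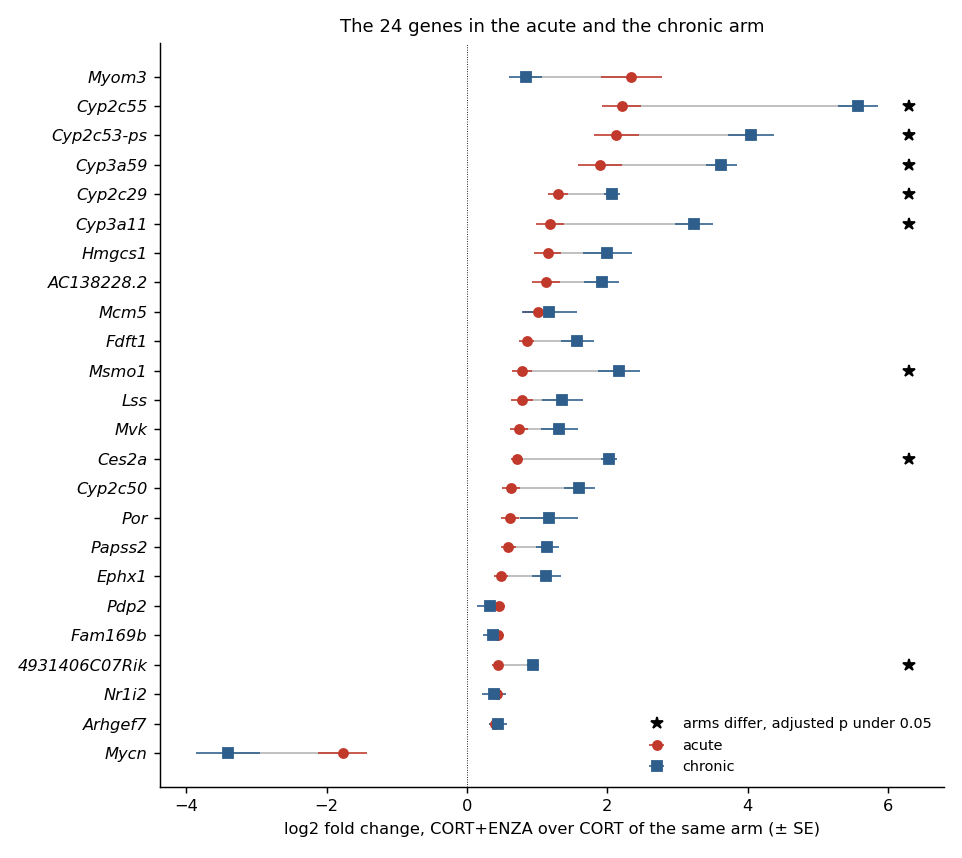
Log2 fold change with standard errors (horizontal axis) of CORT+ENZA over CORT for the 24 called genes (1 row each) in the acute arm (red circles) and the chronic arm (blue squares), with a star where the arms differed at an adjusted p under 0.05. The chronic value is the larger for 19 of the 23 genes that rose, from 0.94 for 4931406C07Rik to 5.58 for Cyp2c55 among the 8 with a star.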

How the data were processed

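RNA of each liver was enriched for mRNA, made into stranded libraries and read from both ends (DNBseq, 100 bp), per the labels. The deposited values are raw counts of reads per gene, 1 table per arm, made by the authors with STAR 2.7.3a and HTSeq 0.12.4 on mm10, per the submitters' processing notes. No source used here states which annotation or strand option was counted with, so overlapping and antisense genes are uncertain. Summary lines (5 per table) were dropped. Of 55573 gene IDs, 55480 were found in GENCODE M21, which gave coordinates.

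Counts were fitted in R 4.3.3 with edgeR 4.0.16 (filterByExpr with minimum count 10 and minimum total 15, TMM scaling, robust quasi-likelihood fit of group means) over all 24 acute, all 18 chronic or all 42 libraries. P-values were adjusted over all genes tested, and a gene was called at an adjusted p under 0.05. CPM are scaled by TMM. The script was tested on simulated data. Alternatives were DESeq2 1.42.0, limma-voom (limma 3.58.1), other scaling and filters, a fit of the groups compared, left-out libraries, and sets of mouse numbers as a term. Genes were named if called, if among the 10 next by p with at least 5 CPM, as up to 3 members of each of 21 pathway lists with the smallest p, or always (such as Nr3c1 and Cyp7a1). Some are given by counts, and a few are not reported here. A transcript with 10% or more of its 50-base stretches in another gene is called uncertain. The members, lists and tests were chosen with earlier results of these data known. P-values measure the spread between the labelled mice.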

Additional observations from a re-analysis of the deposited data

Results flagged for a closer look

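In groups of 6 mice, a library was taken as outlying when its gap to the next one, divided by the range of the group, passed 0.625 (Dixon's 95% value). Of 64 groups looked at, 6 held such a library, where chance gives about 1 in 20. Mvk stood at 51.3 CPM in CORT+ENZA L24A, against 31.8 to 37.1 CPM in the others of its group. Cyp3a59 stood at 81.5 CPM in CORT L14A, against 19.9 to 31.7 CPM. Myom3 stood at 0.785 CPM in CORT L8A, against 0.293 to 0.474 CPM. Arhgef7 stood at 32.5 CPM in CORT L20A, against 23.1 to 25.2 CPM. Mcm5 stood at 5.71 CPM in CORT+ENZA L30A, against 2.5 to 3.14 CPM. The mitochondrial share was 11.49% in CORT+ENZA L36A, against 8.058 to 9.252%.

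For 8 genes the effect of adding ENZA to CORT differed between the arms in 1 edgeR model of all 42 libraries. The chronic effect minus the acute effect was 3.338 on the log2 scale for Cyp2c55, 2.025 for Cyp3a11, 1.888 for Cyp2c53-ps, 1.701 for Cyp3a59, 1.352 for Msmo1, 1.29 for Ces2a, 0.733 for Cyp2c29 and 0.474 for 4931406C07Rik. The extraction kit and the share of multiply aligned reads differed between the arms and cannot be told apart from the duration.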

How the results depend on the processing

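The 24 genes called when ENZA was added to acute CORT became 59 with DESeq2 (49 higher, 10 lower), 50 with limma-voom (42 and 8), 39 when both L19A and L36A were left out (34 and 5), and 14 to 22 with each library left out in turn. The other settings gave 16 to 24, and fitting the 2 groups alone kept 12 of the 23 genes that rose. Of the 24, 7 were called in all 20 settings. For ENZA alone, 180 genes became 388 with DESeq2, 308 with voom, 90 with no filter on low counts, 94 with the 2 groups alone, and 77 to 156 with each library left out. That count was 209 when both L19A and L36A were left out. For chronic minus acute, 179 became 319 with DESeq2 and 460 with limma-voom, and the chronic count and the interaction count of 0 stayed within 1.5 times. The sets of consecutive mouse numbers are given by order alone, and each set holds a mouse of every acute group. Between CORT+ENZA and CORT mice, same-set deviations correlated at -0.069 to 0.319 (mean 0.138), 4 of 6 over 0.1, against a mean of -0.0269 for other sets. No label names these sets, so the numbers were not taken as pairs in the main fit. With these sets as a replicate block the count was 23 (19 of the 23 genes kept), and 191 for ENZA alone. Signs turned for values near 0: Per1 was 0.031 with voom and -0.188 to 0.065 with a library left out, Nr1i3 -0.032 with both of those left out and -0.08 to 0.098, Nr3c1 -0.005 to 0.137, the multiply aligned share -0.2533 to 0.2407 and the ambiguous share -0.01667 to 0.1271 percentage points. Depth limits the genes of few reads, such as Mycn, Myom3 and Cyp2c53-ps.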

Other observations

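CORT+ENZA mouse L30A carried several high values at the same time: acute phase genes at 82800 CPM in sum, Cyp2b10 at 219 CPM, Abcb1a at 7.74 CPM, Mcm6 at 13.3 CPM, Myom3 at 5.07 CPM and Mcm5 at 5.71 CPM, each the highest of the 6 mice. Lcn2, an acute phase gene of neutrophils and hepatocytes, stood at 882 CPM in L30A against a group median of 17.8 CPM. Among the other acute mice, vehicle L31A had Lcn2 at 181 CPM and Saa2 at 1280 CPM, each the highest of its group. Per3, a clock gene, stood at 20.8 to 42.4 CPM in CORT and 42.5 to 67.7 CPM in CORT+ENZA mice without overlap, and did not pass the test (edgeR, adjusted p = 0.16). Zbp1, a sensor of nucleic acids induced by interferon, stood at 4.34 to 6.7 and 6.78 to 13.2 CPM without overlap (edgeR, adjusted p = 0.701).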
